A study of Mus musculus with 3 samples.

Results

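Retinoic acid signalling in the developing mouse kidney is described here through 9 genes, taken by name from the 17864 gene symbols that the 3 deposited count tables share. They are Aldh1a1, Aldh1a2 and Aldh1a3 (synthesis), Crabp1 and Crabp2 (binding in the cytoplasm), Rarb and Rarg (receptors), and Dhrs3 and Ecm1 (genes that respond to the signal). The cells came from wild-type kidneys at E14.5 (days of embryonic development) of a mixed strain, mostly CD-1 and 129, with no treatment or mutant allele in any group. Each of 3 platforms gave 1 library: Drop-seq and 10x Chromium, which capture cells in droplets, and Fluidigm C1, which captures them in wells of a microfluidic chip. Drop-seq and 10x values are counts of transcripts by molecular identifier (UMIs), C1 values are read counts, and no platform has a replicate library. No source used here gives the number of animals behind a library, so every p-value measures only the spread between these 3 libraries, which differ in platform.

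Retinoic acid is made from retinol (vitamin A) through retinal, and the last step is carried out by the retinaldehyde dehydrogenases of the Aldh1a family. In a cell that receives it, retinoic acid is carried by the CRABP proteins to nuclear receptors of the RAR family, which bind DNA as partners of RXR receptors at pairs of short repeated half-sites. In the embryonic kidney the signal is best known for its exchange between stroma and ureteric bud, in which the receptor gene Rarb and the receptor tyrosine kinase gene Ret are the classic actors.

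Rarb is itself a textbook target of the receptors, so the promoter stretch that holds its repeat is shown, beside that of Cyp26a1, which encodes an enzyme that degrades retinoic acid. The RefSeq promoter windows (build GRCm38.p6, 300 bases around each start) were searched for direct repeats of the half-site AGGTCA, the variant AGTTCA, the variant GGGTCA or the variant GGTTCA, with 1, 2 or 5 bases between them, on both strands. Capitals mark the half-sites or their reverse complements, and each sequence runs 5′ to 3′ on the strand of its gene.
Rarb, chr14:16575498-16575544, minus strand: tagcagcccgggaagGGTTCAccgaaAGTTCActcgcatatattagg
Cyp26a1, chr19:37697761-37697807, plus strand: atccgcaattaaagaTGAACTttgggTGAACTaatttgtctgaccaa
In Rarb the repeat lay 53 to 37 bases before the start, with 5 bases between the half-sites. In Cyp26a1 the same kind of repeat lay on the minus strand, 32 to 16 bases before the start. This repeat with 5 bases between was found in 32 of 32851 promoter windows (0.0974%), counted over the whole window. For the 9 genes only repeats that lay wholly before the start were listed. Among the windows matched to them, only that of Rarb held such a repeat. Windows were matched for Aldh1a1 (2), Aldh1a2 (1), Crabp1 (1), Rarb (1), Rarg (2), Dhrs3 (3) and Ecm1 (1). A match of letters is a description of the sequence and not evidence of binding.

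In the GENCODE M21 annotation of GRCm38 the 9 genes lie apart, on 7 chromosomes. Aldh1a1 is on chromosome 19 (20492715 to 20643465, plus strand), Aldh1a2 on chromosome 9 (71215789 to 71296243, plus strand) and Aldh1a3 on chromosome 7 (66390890 to 66427517, minus strand). Crabp1 is on chromosome 9 (54764748 to 54773110, plus strand) and Crabp2 on chromosome 3 (87948666 to 87953376, plus strand). Rarb is on chromosome 14 (16430839 to 16819156, minus strand) and Rarg on chromosome 15 (102234938 to 102257517, minus strand). Dhrs3 is on chromosome 4 (144892827 to 144928209, plus strand) and Ecm1 on chromosome 3 (95734147 to 95739569, minus strand), where it shares 2.5% of its exonic bases with Mir7014. Apart from that overlap and the one described with the Rarb values, no exonic base of the 9 is shared with another gene.

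Cells were sorted into classes by clustering each library alone, with the retinoid genes left out of the clustering, and by naming clusters from marker lists. After filtering, Drop-seq had 1964 cells, 10x had 2130 and C1 had 883, and no barcode was shared between libraries. Median depth was 7060 UMIs, 7369 UMIs and 166712 reads per cell. Names of the C1 cells fall in 2 groups, HT and E14, whose meaning the labels do not give, and the main fit did not split them. The 6 classes compared are the cap mesenchyme of nephron progenitors, the nephron epithelium that forms from it, the ureteric epithelium of the bud and collecting ducts, the stroma around them, the endothelium of the vessels, and immune cells. The last class comes from 10x (86 cells) and C1 (12 cells) only, since no Drop-seq cluster took that name. Orders below are among these 6 classes. A Drop-seq cluster of 16 cells that took no name stood above all of them for Aldh1a3 (297 CPM, counts scaled to a common total), Crabp2 (427 CPM) and Dhrs3 (123 CPM). A 10x cluster of 36 cells without a name did so for Dhrs3 (190 CPM, against 154 CPM in stroma), and the 32 C1 cells without a name stood above them for Aldh1a2 (676 CPM) and Crabp2 (201 CPM). The 16 Drop-seq cells held 431304 UMIs in sum at a median of 5793. With each cell scaled alone and the values averaged, they had 178 CPM of Aldh1a3, 270 CPM of Crabp2 and 112 CPM of Dhrs3. Crabp2 was then below its cap mesenchyme value (283 CPM), while Aldh1a3 and Dhrs3 stayed above all classes compared. All 8 stroma markers were higher in the stroma class than in the rest of its library in all 3 libraries, and so were all 9 endothelial markers in the endothelium. Of 10 ureteric markers, 8, 8 and 9 were higher in the ureteric class of Drop-seq, 10x and C1. In C1 the other 5 classes held a summed level of stroma markers of 10.2% to 15.2% of that in stroma, against 3.14% to 7.13% in Drop-seq and 1.81% to 7.24% in 10x, and the part of this in the C1 levels below was not tested.

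Some classes also held markers of other cells. All 10 immune markers were higher in the immune class of 10x and C1, but in 10x its summed erythroid markers stood at 7835 CPM (7 of 8 higher than in the rest) beside 5359 CPM of its immune markers, and all 8 neural markers were higher (261 CPM in sum). The C1 immune cells had 1156 CPM of cap mesenchyme markers (4 of 8 higher, 2 at 0). In C1 the cap mesenchyme had all 8 early nephron epithelium markers higher than the rest, at 378 CPM beside 449 CPM in nephron epithelium. C1 nephron epithelium had 1415 CPM of erythroid markers, against 5.18 to 18.9 CPM in the other C1 classes. In Drop-seq the stroma had 9437 CPM of erythroid markers (0 of 8 higher than in the rest, which holds the erythroid class), against 638 to 2703 CPM in the other 4 classes. The C1 ureteric class had 6 of 8 distal nephron precursor markers higher than the rest, at 156 CPM beside 55.9 CPM in nephron epithelium. The ureteric classes of Drop-seq and 10x had 2 of 8 higher, at 201 and 145 CPM beside 328 and 468 CPM in nephron epithelium. The part of these markers in the results was not tested.

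**Figure D1:**
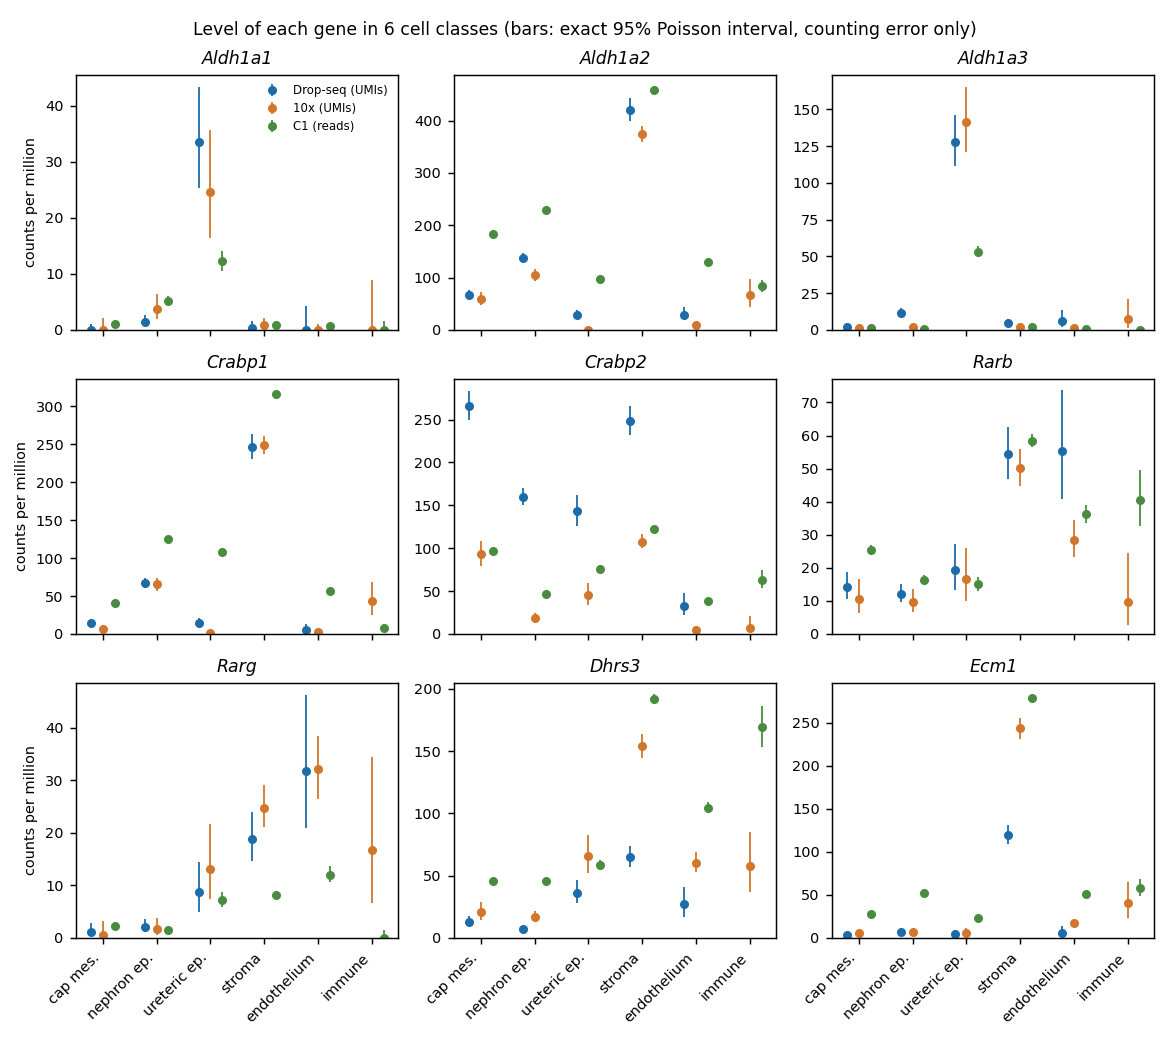
Level of the 9 genes (vertical axis, CPM, starting at 0) in the 6 cell classes (horizontal axis), with 1 point per library and exact 95% Poisson intervals that cover counting error only. Aldh1a2, Crabp1 and Ecm1 are highest in stroma in all 3 libraries, while Aldh1a1 and Aldh1a3 are highest in ureteric epithelium.

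The stroma was the class with the highest Aldh1a2, the main retinoic acid synthesizing enzyme of the early embryo. Its level in stroma was 421 CPM (the gene's counts scaled to a common total over all counts of the class) in Drop-seq, 374 CPM in 10x and 459 CPM in C1. All 3 stromal values lay above the other classes compared in their library. Of all Aldh1a2 counts, stroma held 53.4% (Drop-seq), 79.6% (10x) and 51.7% (C1), with 22.5%, 40.2% and 37.3% of the cells. In edgeR's quasi-likelihood test, which set each class against the mean of the other 5, Aldh1a2 was higher in stroma by 2.69 on the log2 scale (standard error, SE, 0.44, adjusted p = 0.00485, Benjamini-Hochberg), with the same sign in 3 of 3 libraries. Without the Drop-seq library the log2 difference was 2.59 and the adjusted p was 0.137, so this call needs that library.

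Counts of Aldh1a2 were not limited to stroma. Nephron epithelium, the structures that form from the cap mesenchyme, had 138, 105 and 229 CPM in Drop-seq, 10x and C1, second in order in each library. These values were 32.7%, 28.1% and 49.9% of the stromal level, while the summed stroma markers of the same cells were at 5.43%, 4.03% and 10.2% of theirs. Cap mesenchyme had 66.6, 59.5 and 182 CPM. The Drop-seq erythroid cells, outside the classes compared, had 42.4 CPM, with a count in 20.3% of 64 cells. The 10x immune cells had 67.0 CPM, above cap mesenchyme there and at 17.9% of the stromal level, with stroma markers at 7.24%. The part of stromal RNA carried into other cells in these values was not tested. In the pair test stroma and nephron epithelium did not differ past the threshold (log2 difference 1.52, adjusted p = 0.164), and neither did nephron epithelium and cap mesenchyme (0.74, adjusted p = 0.67).

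Ureteric epithelium and endothelium had the lowest Aldh1a2 of the classes in both droplet libraries, while in C1 the immune cells were lowest (83.9 CPM, against 67.0 CPM in the 10x immune cells). Ureteric epithelium had 28.2 CPM in Drop-seq, 0.880 CPM in 10x (1 UMI in 118 cells) and 97.0 CPM in C1. Endothelium had 29.5, 9.68 and 130 CPM. The ureteric level was below the stromal one in each library, by 3.64 on the log2 scale (adjusted p = 0.00851, edgeR pair test), but the ureteric values themselves span a wide range between platforms. At 4000 UMIs per cell, a UMI of Aldh1a2 was found in 54.2% of 430 Drop-seq and 54.0% of 771 10x stromal cells, and in 8.75% and 0% of ureteric cells. Before thinning, these shares were 64.5% and 61.8% in stroma (median 6618.5 and 6563 UMIs) and 14.4% and 0.847% in ureteric cells (median 7672.5 and 9029 UMIs).

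The other 2 synthesis genes had their highest pooled level in ureteric epithelium among the 6 classes. Aldh1a3, a second retinaldehyde dehydrogenase, reached 128 CPM in Drop-seq, 142 CPM in 10x and 53.3 CPM in C1 in ureteric epithelium. No other class of the 6 went above 11.7 CPM (nephron epithelium, Drop-seq). Within nephron epithelium the distal nephron precursors had 19.4 CPM (46 UMIs) in Drop-seq and 2.76 CPM (3 UMIs) in 10x. The ureteric cells held 48.0%, 72.2% and 79.0% of all Aldh1a3 counts. Its log2 difference from the mean of the other classes was 5.50 (SE 0.40, adjusted p = 2.3e-06, edgeR), positive in 3 of 3 libraries, and it passed under all 17 alternative settings tried. At 4000 UMIs per cell 36.9% of Drop-seq and 41.3% of 10x ureteric cells had a UMI of Aldh1a3, against 1.19% and 0.559% of cap mesenchyme cells. Before thinning the shares were 60% and 61.0%, against 1.61% and 1.0% of cap mesenchyme cells, whose median depths were 6790 and 8334.5 UMIs.

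Aldh1a1, the third enzyme of the family, had the same class on top. Ureteric epithelium had 33.5 CPM in Drop-seq (57 UMIs), 24.7 CPM in 10x (28 UMIs) and 12.2 CPM in C1 (177 reads, from 7 of 72 cells). With each cell scaled alone and the values averaged, C1 had 8.22 CPM in ureteric and 10.7 CPM in nephron epithelium. In Drop-seq and 10x the ureteric class stayed above nephron epithelium that way (30.6 against 1.08 CPM, and 28.2 against 4.11 CPM). Cap mesenchyme and endothelium had no UMI of Aldh1a1 in either droplet library. Counted against the level that 3 UMIs over the class would give, the ureteric level was at least 39.2-fold higher than in cap mesenchyme and at least 9.47-fold higher than in endothelium in Drop-seq. In 10x the same bounds were 14.1-fold and 29.7-fold. The edgeR log2 difference was 6.38 (SE 0.72, adjusted p = 2.87e-05), a size that depends on how the fit treats classes with 0 counts. It too passed under all 17 alternatives.

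Nephron epithelium was second for Aldh1a1, with 1.43, 3.75 and 5.24 CPM. Its proximal tubule precursors had 4.75 CPM in Drop-seq (4 UMIs), 10.9 CPM in 10x (8 UMIs) and 8.62 CPM in C1 (168 reads, from 6 of 72 cells). The early nephron epithelium had 1.61 CPM in Drop-seq (5 UMIs), 3.04 CPM in 10x (5 UMIs) and 1 read in C1, while the distal precursors of Drop-seq and 10x had none. These counts are small, and the class contrast for nephron epithelium did not pass (log2 difference 2.80, adjusted p = 0.0528, edgeR). The pair test of ureteric against nephron epithelium did not pass either (log2 difference 2.98, adjusted p = 0.0618, edgeR).

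The cytoplasmic binding proteins split. Crabp1, which binds retinoic acid and is linked to its breakdown, had 246, 249 and 316 CPM in stroma of Drop-seq, 10x and C1, above the other classes compared in each library. Its log2 difference in stroma was 3.46 (SE 0.61, adjusted p = 0.00687, edgeR), again lost without Drop-seq (log2 3.24, adjusted p = 0.145). Nephron epithelium came second with 67.3, 65.2 and 125 CPM, at 27.3%, 26.2% and 39.5% of the stromal level, and did not differ from stroma past the threshold (adjusted p = 0.236). Cap mesenchyme was lower than stroma (14.8, 6.99 and 41.1 CPM, log2 difference -3.97, adjusted p = 0.0393, edgeR pair test).

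Crabp2, which hands retinoic acid to the receptors, had a broader pattern. Cap mesenchyme had 266, 93.3 and 96.5 CPM and stroma 248, 108 and 122 CPM in Drop-seq, 10x and C1, so that the top class was cap mesenchyme in Drop-seq and stroma in the other 2 libraries. The pair test did not separate them (log2 difference 0.10 with stroma higher, adjusted p = 0.948). Endothelium was the low class with 33.0, 4.15 and 37.9 CPM. Crabp2 was lower in endothelium by 1.81 on the log2 scale (adjusted p = 0.021, edgeR) and higher in stroma by 1.3 (adjusted p = 0.0404).

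Those Crabp2 results were sensitive to single libraries. The stromal difference missed the threshold without Drop-seq (1.5, adjusted p = 0.162), without 10x (0.92, adjusted p = 0.0859) and without C1 (1.91, adjusted p = 0.0697). The endothelial one missed it without Drop-seq (adjusted p = 0.16) and without C1 (adjusted p = 0.244). In every one of these fits the direction was the same.

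The receptors were led by stroma and endothelium. Rarb had 54.3, 50.1 and 58.5 CPM in stroma and 55.4, 28.5 and 36.2 CPM in endothelium of Drop-seq, 10x and C1. Nephron epithelium, at 12.2, 9.81 and 16.4 CPM, cap mesenchyme, at 14.2, 10.5 and 25.3 CPM, and ureteric epithelium, at 19.4, 16.7 and 15 CPM, lay below both in every library. The C1 immune cells had 40.5 CPM (96 reads in 12 cells), above the endothelium of that library, and the 10x immune cells had 9.57 CPM (4 UMIs). Rarb was higher in stroma by 1.33 (SE 0.21, adjusted p = 0.000638, edgeR) and in endothelium by 0.87 (SE 0.23, adjusted p = 0.0149), and lower in nephron epithelium by 1.12 (adjusted p = 0.00824). The stromal result passed under all 17 alternatives. Without Drop-seq the endothelial and nephron results missed the threshold (adjusted p = 0.309 and 0.201).

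Reads of Rarb carry a limit of annotation. The gene shares 38.4% of its exonic bases with Top2b and the antisense gene Gm48162 on the other strand. No source used here says whether the counting used strand, so whether reads from that stretch were told apart is not known. Top2b is a DNA topoisomerase gene, and its levels are given here for comparison. It had 96.9 to 143 CPM over the 5 Drop-seq classes, 55.0 to 101 CPM over the 6 10x classes and 84.8 to 167 CPM over the 6 C1 classes. Its log2 difference was 0.35 in stroma (adjusted p = 0.0237, edgeR) and 0.20 in endothelium (adjusted p = 0.196). It was also higher in cap mesenchyme by 0.38 (adjusted p = 0.0161, edgeR) and lower in immune cells by 0.58 (adjusted p = 0.00693). The part of Top2b reads in the Rarb values was not tested.

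Rarg, the third receptor type of the RAR family, was highest in endothelium in all 3 libraries, at 31.8, 32.1 and 12.1 CPM. Stroma was second with 18.8, 24.8 and 8.10 CPM, and ureteric epithelium had 8.81, 13.2 and 7.32 CPM. Cap mesenchyme and nephron epithelium had at most 2.38 CPM in any library. Rarg was higher in endothelium by 2.33 (SE 0.45, adjusted p = 0.00212, edgeR) and in stroma by 1.51 (SE 0.45, adjusted p = 0.0413), and lower in nephron epithelium by 2.0 (adjusted p = 0.0394). Endothelium and stroma did not differ past the threshold (log2 difference 0.68, adjusted p = 0.54).

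Without Drop-seq none of these 3 Rarg results passed (adjusted p = 0.105 in endothelium, 0.382 in stroma and 0.343 in nephron epithelium). Without 10x the nephron difference shrank to -0.11 (adjusted p = 0.975). The stromal call was also lost under the first form of the cluster naming rule and with the HT and E14 cells of C1 as 2 libraries. Leaving out the 5 barcodes of highest count per library lost both the stromal and the nephron call. The nephron call was also lost with clustering at Leiden resolution 0.6. At 4000 UMIs per cell a UMI of Rarg was seen in 13.7% of Drop-seq and 10.7% of 10x endothelial cells, and in 0.943% and 0.295% of nephron epithelial cells. The unthinned shares were 20.6% and 25.5% in endothelium (median 6910.5 and 8914 UMIs), and 2.02% and 1.62% in nephron epithelium (median 7689 and 8844 UMIs).

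Dhrs3 encodes a reductase that turns retinal back into retinol, and its transcription is induced by retinoic acid, so that it is read both as a brake and as a responder. It had 64.9 CPM in Drop-seq, 154 CPM in 10x and 192 CPM in C1 in stroma. Stroma was the top of the 6 classes in every library. Endothelium had 27.1, 60.6 and 104 CPM and ureteric epithelium 36.4, 66.0 and 58.6 CPM, while cap mesenchyme (13.1, 21.0 and 45.4 CPM) and nephron epithelium (7.44, 16.4 and 45.4 CPM) were the lowest. The stromal difference was 1.56 (SE 0.19, adjusted p = 0.000157, edgeR). Nephron epithelium was lower by 1.61 (SE 0.24, adjusted p = 0.000467) and cap mesenchyme by 1.27 (SE 0.24, adjusted p = 0.00387), the last of which missed the threshold without Drop-seq (adjusted p = 0.0833).

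Dhrs3 had the most class pairs past the threshold of the 9 genes, with 10 of 15. Ureteric epithelium was above both cap mesenchyme (log2 difference 1.09, adjusted p = 0.0317, edgeR pair test) and nephron epithelium (ureteric higher, with a fitted nephron-to-ureteric value of -1.38, adjusted p = 0.0182). In immune cells it had 57.4 CPM in 10x (24 UMIs) and 169 CPM in C1 (401 reads in 12 cells), higher by 0.93 (adjusted p = 0.0169). Both immune classes also held the markers of other cells given above, whose part in this value was not tested. That immune value was 0.90 without Drop-seq (adjusted p = 0.0565), 0.41 without C1 (adjusted p = 0.573) and -0.25 once 5 barcodes of each library, those of greatest total count, were left out (adjusted p = 0.734).

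Ecm1, a secreted matrix protein whose gene depends on retinoic acid in kidney stroma, was the most stromal of the 9 by share of counts. Stroma held 83.9% (Drop-seq), 91.6% (10x) and 75.1% (C1) of its counts. Its stromal levels were 120, 243 and 278 CPM, and no other class went above 11.6 CPM in Drop-seq, 40.7 CPM in 10x or 58.2 CPM in C1 among named classes. The log2 difference was 3.75 (SE 0.27, adjusted p = 9.12e-06, edgeR), and it passed under all 17 alternatives. Ecm1 was lower in cap mesenchyme by 1.6 (adjusted p = 0.0151) and in ureteric epithelium by 1.67 (adjusted p = 0.0138), and both missed the threshold without Drop-seq (adjusted p = 0.201 and 0.136). The ureteric value was -1.37 with 5 barcodes of each library, those of greatest total count, left out (adjusted p = 0.0607), and the cap mesenchyme value was -0.41 with cells classed singly by marker score (adjusted p = 0.364).

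**Figure D2:**
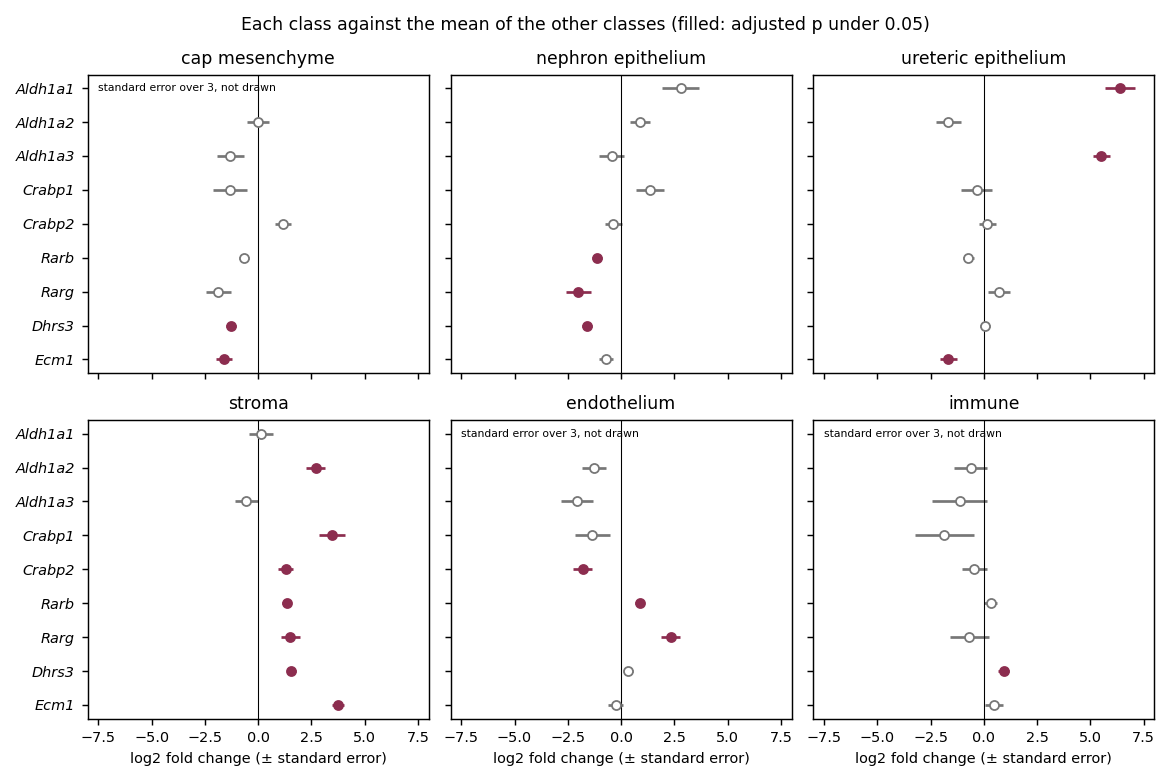
Log2 fold change of each gene (horizontal axis, with standard error) in each class against the mean of the other classes, from edgeR over the class sums of the 3 libraries, with filled points where the adjusted p is under 0.05. In stroma 7 of 9 genes are filled and all 7 are higher, while ureteric epithelium has Aldh1a1 and Aldh1a3 on the higher side.

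Counted by class, 7 of the 9 genes were higher in stroma, and 0 were lower (Aldh1a2, Crabp1, Crabp2, Rarb, Rarg, Dhrs3 and Ecm1). Of all 9520 genes tested, 6.5% were higher in stroma and 4.15% lower. The median log2 difference in stroma was 1.51 over the 9 genes and 0.01 over all genes tested. The 9 genes were chosen with earlier results of these data known. Their counts beside the shares over all genes are therefore a description and no test of the list. In ureteric epithelium 2 were higher (all genes 8.29%) and 1 lower (all genes 3.58%), and in endothelium 2 were higher (all genes 9.82%) and 1 lower (all genes 4.59%). Cap mesenchyme had 0 higher (all genes 6.59%) and 2 lower (all genes 3.26%), and nephron epithelium had 0 higher (all genes 6.76%) and 3 lower (all genes 2.46%). The immune class had 1 higher (all genes 11.8%) and 0 lower (all genes 15%), and the median over all genes in that contrast was itself -0.17. With the genes used for clustering and naming put back, 11.3% of all genes were higher in stroma, 10.7% in ureteric epithelium, 12.9% in endothelium, 7.4% in cap mesenchyme, 9.9% in nephron epithelium and 13.9% in immune cells. The nearest to a higher call in these 2 classes were Aldh1a1 in nephron epithelium (log2 difference 2.80, adjusted p = 0.0528, edgeR) and Crabp2 in cap mesenchyme (1.18, adjusted p = 0.0711).

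Over these 54 tests 19 passed, against 13.8% of all gene tests, and over the 135 pair tests 46 passed, against 14% of all gene tests. Without the Drop-seq library 6 of the 54 passed, all among the 19. They are Aldh1a1 and Aldh1a3 in ureteric epithelium, Rarb, Dhrs3 and Ecm1 in stroma, and Dhrs3 in nephron epithelium. All 19 kept their direction there. With the HT and E14 name groups of C1 as 2 libraries, 13 of the 19 passed and all 19 kept their direction.

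Within the stroma, clusters carried the markers of 3 groups: stroma of the nephrogenic zone under the capsule (150 Drop-seq, 281 10x and 100 C1 cells), interstitial stroma (146, 236 and 102 cells) and a collagen-rich group (146, 58 and 127 cells). A further 281 stromal cells of 10x took no zone, among them a cluster of 144 cells. Its leading genes include Mfap5, Postn, Ogn and Col1a1 beside Dlk1 and Sfrp1, which are nephrogenic-zone markers. That cluster scored highest for the nephrogenic zone (mean z 0.588, against 0.0745 and 0.279 in the 10x clusters given that name). It took no zone because its leading genes held 3 collagen-rich markers and 2 of the nephrogenic zone, so the zone comparison leaves it out. Leading genes of the 58 collagen-rich cells of 10x include Actg2, Cnn1, Mylk, Myh11 and Acta2 beside Lum and Dcn. Those of the Drop-seq and C1 collagen-rich groups include Dcn, Lum, Postn, Ogn and Col1a1. Whether this group holds like cells in the 3 libraries was not tested. Aldh1a2 was highest in the nephrogenic zone, at 922 CPM in Drop-seq, 663 CPM in 10x and 925 CPM in C1. Interstitial stroma had 167, 131 and 288 CPM and the collagen-rich group 267, 35.5 and 232 CPM. The nephrogenic-zone level was above both others in each library. At 4000 UMIs per cell 91.7% of Drop-seq and 86.8% of 10x nephrogenic-zone cells had a UMI of it, against 28.9% and 29.0% of interstitial cells, and before thinning the shares were 96% and 95% against 41.8% and 38.1% at median depths of 6008 and 7329 against 6014 and 6243 UMIs.

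The binding proteins leaned the same way. Crabp1 had 445, 272 and 435 CPM in the nephrogenic zone and 174, 52.7 and 131 CPM in interstitial stroma. In the collagen-rich group it had 168, 88.8 and 397 CPM, and the 10x stromal cells without a zone stood at 417 CPM, above its nephrogenic zone. Crabp2 had 373, 158 and 193 CPM in the nephrogenic zone, 49.2, 26.3 and 80.6 CPM in interstitial stroma, and 293, 41.4 and 103 CPM in the collagen-rich group. Ecm1 had the reverse order for the first 2 groups, with 99.5, 169 and 217 CPM in the nephrogenic zone and 209, 385 and 316 CPM in interstitial stroma.

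**Figure D3:**
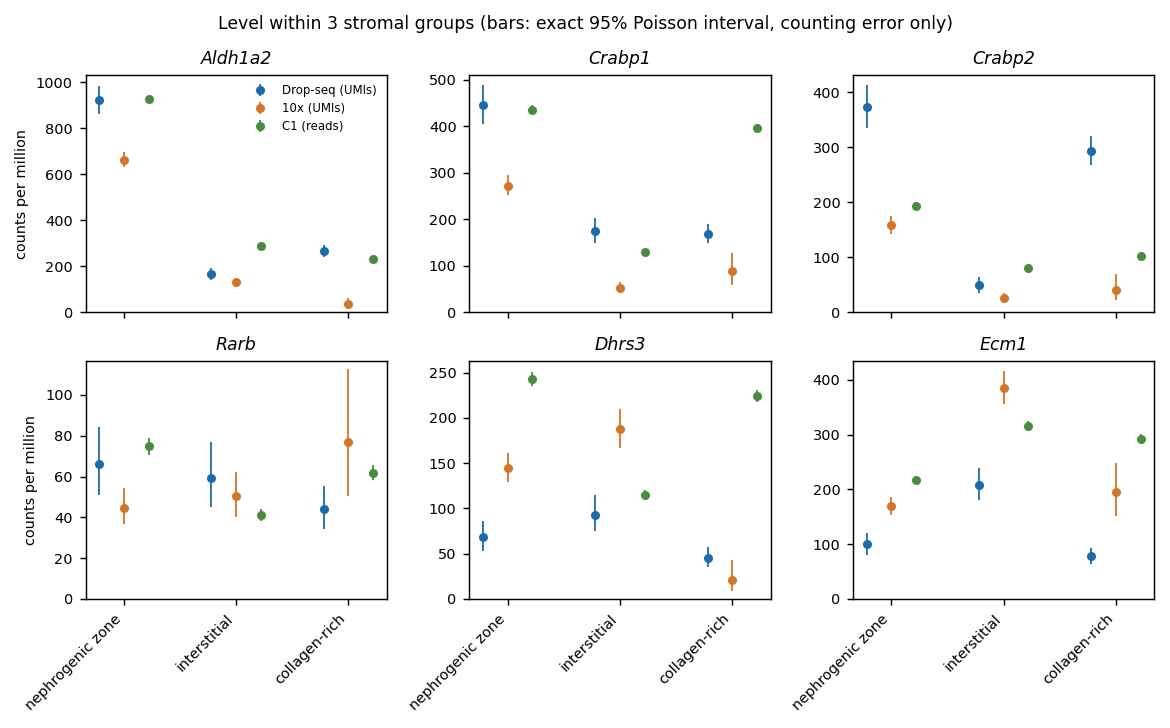
Level of 6 of the genes (vertical axis, CPM, starting at 0) in 3 stromal groups (horizontal axis), with 1 point per library and exact 95% Poisson intervals for counting error. Aldh1a2 is highest in the nephrogenic zone in all 3 libraries, and Ecm1 is higher in interstitial than in nephrogenic-zone stroma in all 3.

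None of these zone differences passed the test across libraries. In edgeR's fit of nephrogenic-zone stroma against the other zoned stroma, 0 of 9 genes passed at an adjusted p under 0.05, with 2 of 9 at an unadjusted p under 0.05 (Aldh1a2 and Crabp2), and DESeq2 gave the same counts. Of all 9425 genes tested, 0.0531% passed in this contrast, 1 higher and 4 lower. The log2 difference was 2.23 for Aldh1a2 (95% interval 0.95 to 3.51, adjusted p = 0.318), 1.52 for Crabp2 (0.52 to 2.51, adjusted p = 0.351) and 1.53 for Crabp1 (-0.13 to 3.2, adjusted p = 0.599). Ecm1 was at -0.65 (-1.57 to 0.26, adjusted p = 0.686), and the same sign as the fit was seen in 3 of 3 libraries for these 4 genes. Rarb, Rarg and Dhrs3 lay between -0.03 and 0.27, with libraries on both sides of 0.

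Single stromal cells were also read for the genes they held together with Aldh1a2, after thinning each cell to 4000 UMIs (C1 to 50000 reads). In Drop-seq Crabp1 was detected in 56.3% of stromal cells with an Aldh1a2 count and in 29.2% of those without. The same 2 shares were 57.6% and 28.1% for 10x, and 63.5% and 39.7% for C1. Those of Crabp2 were 57.6% and 35.4% for Drop-seq, 41.0% and 14.6% for 10x, and 62.0% and 48.3% for C1. Both binding proteins had the larger share in cells with Aldh1a2 in each library. So did Dhrs3, with 24.4% and 20.8% in Drop-seq, 45% and 38.0% in 10x, and 82.7% and 74.1% in C1. Rarg had the smaller share with Aldh1a2 in each, at 6.30% and 10.9%, 8.62% and 9.65%, and 10.2% and 12.1%. For Rarb the shares were 21.4% and 19.3% in Drop-seq, 20.3% and 20.2% in 10x and 45.1% and 36.2% in C1. For Ecm1 they were lower with Aldh1a2 in both droplet libraries (33.6% and 41.1% in Drop-seq, 47.8% and 58.5% in 10x) and higher in C1 (80.8% and 72.4%). Cells of 1 library are not replicates, so these shares are a description with no test.

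**Figure D4:**
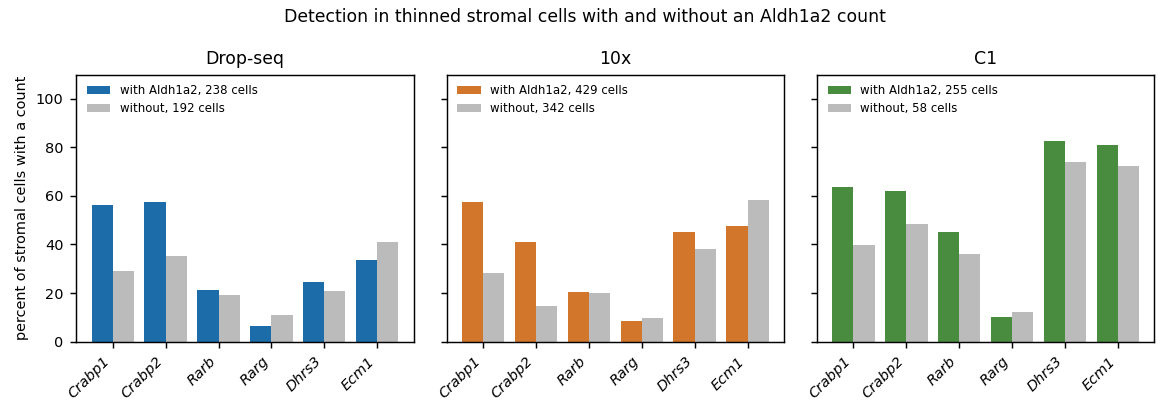
Share of thinned stromal cells (vertical axis, percent) with a count of each gene (horizontal axis), in cells with an Aldh1a2 count (coloured bars) and without (grey bars), 1 panel per library. Crabp1 and Crabp2 bars are taller in cells with Aldh1a2 in all 3 panels, while Rarb bars in 10x are nearly level at 20.3% and 20.2%.

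Along the nephron epithelium, whose stages were not tested against each other, counts of Aldh1a2 were found at every named stage. The early epithelium had 178, 140 and 290 CPM in Drop-seq, 10x and C1, and the proximal tubule precursors 149, 117 and 189 CPM. The distal precursors, named in the droplet libraries only, had 81.7 and 43.3 CPM. Crabp1 was lower in distal than in early epithelium as well (19.8 against 85.2 CPM in Drop-seq, 4.6 against 117 CPM in 10x). Crabp2 was lowest at the proximal stage, with 36.8, 2.72 and 16.8 CPM against 175, 14.6 and 91.0 CPM in the early epithelium, and Dhrs3 was lower in the early epithelium (4.52, 11.6 and 42.1 CPM) than at the proximal stage (20.2, 47.6 and 47.6 CPM).

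A list of 37 other retinoid genes, also chosen with earlier results of these data known, puts these levels in context. Of these, 27 could be tested in the class contrasts. In stroma 7 were higher and 2 lower (all genes 6.5% and 4.15%), and in ureteric epithelium 5 and 5 (all genes 8.29% and 3.58%). Endothelium had 4 and 2 (all genes 9.82% and 4.59%), cap mesenchyme 3 and 4 (6.59% and 3.26%), nephron epithelium 3 and 3 (6.76% and 2.46%) and immune cells 1 and 7 (11.8% and 15%). The counts of higher genes in endothelium, cap mesenchyme and nephron epithelium lie near the shares over all genes and are no result about the list. By role, retinol transport and storage had 2 of 5 tested genes higher in stroma and 2 higher and 1 lower in ureteric epithelium, groups too small to set against those shares. Of 5 tested genes that make or reduce retinal, 0 passed in stroma and 1 was higher in ureteric epithelium. Of 3 tested receptor genes, 1 (Rxra) was higher in each of stroma, ureteric epithelium and endothelium.

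Breakdown of retinoic acid was marked by Cyp26b1, a hydroxylase that clears it. Endothelium had 83.7 CPM in Drop-seq, 41.8 CPM in 10x and 45.3 CPM in C1. No other named class went above 15.9 CPM (ureteric epithelium, Drop-seq). Its log2 difference in endothelium was 4.89 (SE 0.34, adjusted p = 8.74e-08, edgeR), positive in 3 of 3 libraries. Fabp5, a fatty acid binding protein that also takes retinoic acid, was likewise highest in endothelium, at 891, 2053 and 1268 CPM (log2 difference 2.38, adjusted p = 1.42e-05), and lower in stroma by 1.20 (adjusted p = 0.0121).

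Uptake and the classic target followed the ureteric class. Stra6, the membrane receptor that takes up retinol from its carrier, had 25.3, 38.7 and 9.80 CPM in ureteric epithelium and 11.2, 14.2 and 11.1 CPM in stroma, so that C1 put stroma above the ureteric class. Cap mesenchyme had 7.40, 16.9 and 5.25 CPM, above stroma in 10x. It was higher in ureteric epithelium by 2.70 (adjusted p = 0.000179, edgeR) and in stroma by 1.67 (adjusted p = 0.00867), and lower in endothelium by 3.97 (adjusted p = 0.000499), where it had at most 1.18 CPM. Ret, the receptor of the branching signal, had 89.3, 151 and 128 CPM in ureteric epithelium (log2 difference 6.58, adjusted p = 6.91e-07).

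Of the 5 target genes tested, 4 were higher in stroma, where 6.5% of all genes were (11.3% with the genes used for clustering and naming included). Nr2f2 and Nr2f1, orphan nuclear receptors of the COUP-TF type, were higher there by 1.68 (adjusted p = 0.000821, edgeR) and 2.28 (adjusted p = 0.0102). Nr2f2 was also higher in cap mesenchyme by 1.38 (adjusted p = 0.00406, edgeR) and lower in ureteric epithelium (log2 difference -1.84, adjusted p = 0.00169). Tgm2, a transglutaminase, was higher in stroma by 2.47 (adjusted p = 0.00046), in endothelium by 2.48 (adjusted p = 0.000241) and in nephron epithelium by 1.81 (adjusted p = 0.00645). Meis2, a homeobox gene, was higher in stroma by 1.68 (adjusted p = 0.0356, edgeR). Ret was the 1 target that was lower in stroma (log2 difference -2.50, adjusted p = 0.0285).

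The rest of the named retinoid genes had smaller or more scattered differences. Rxra, the partner of the RAR receptors, was higher by 1.01 in ureteric epithelium (adjusted p = 0.0248, edgeR), 0.97 in stroma (adjusted p = 0.026) and 0.89 in endothelium (adjusted p = 0.0432). Rbp4, a retinol carrier, was higher in nephron epithelium by 3.15 (adjusted p = 0.0081), in stroma by 2.93 (adjusted p = 0.0136) and in ureteric epithelium by 2.88 (adjusted p = 0.0171), with at most 8.42 CPM in any class. Of the coregulator genes, Nrip1 was lower in cap mesenchyme (-1.22, adjusted p = 0.0103), and Ncoa3 was lower in cap mesenchyme (-0.90, adjusted p = 0.0178) and nephron epithelium (-0.85, adjusted p = 0.0208). The reductase gene Dhrs4 was higher in ureteric epithelium by 0.63 (adjusted p = 0.0214).

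**Figure D5:**
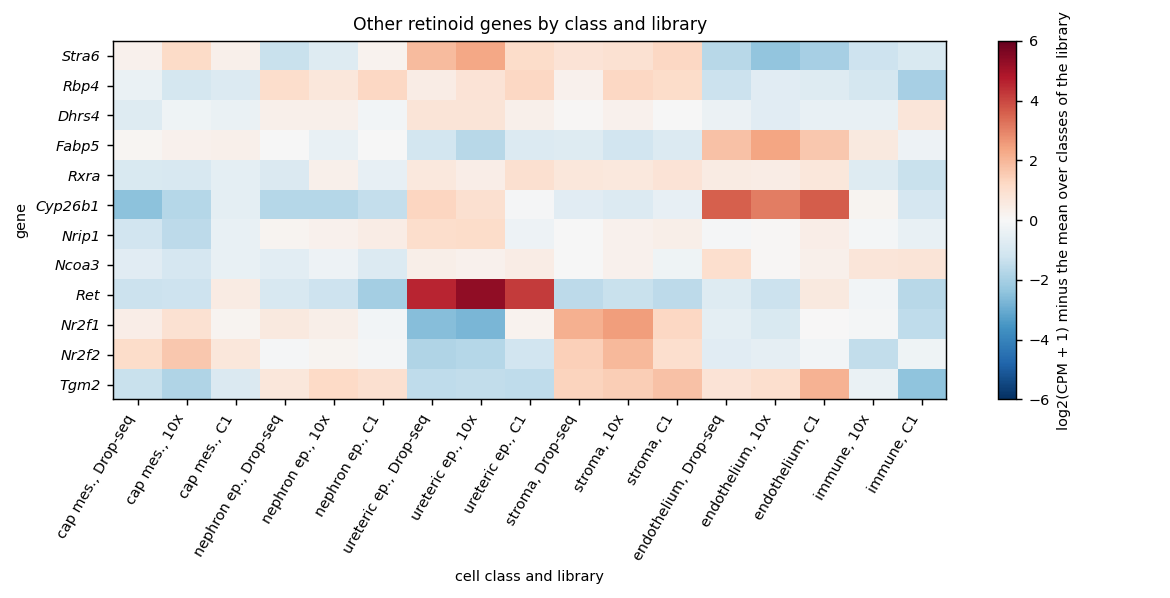
Other retinoid genes (vertical axis) by class and library (horizontal axis), coloured by log2(CPM + 1) minus the mean over the classes of that library. Cyp26b1 and Fabp5 stand out in the 3 endothelium columns, Ret in the 3 ureteric columns, and Nr2f2 is above 0 in all 3 stroma columns.

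Members were also compared with each other and with all genes over the 17 class sums, as Pearson's r of log2(CPM + 1) centred within each library, with no test since sums of 1 library share their cells' depth. Aldh1a2 and Crabp1 had r = 0.87, Aldh1a1 and Aldh1a3 r = 0.86, and Rarb and Dhrs3 r = 0.82. Aldh1a2 and Aldh1a3 ran opposite (r = -0.51). Among 8357 genes the closest pattern to Aldh1a2 was that of Mgp (r = 0.91), to Aldh1a3 that of Ovol2 (r = 0.96), to Aldh1a1 that of Glb1l2 (r = 0.96), to Crabp1 that of Rasl11a (r = 0.91) and to Crabp2 that of Fzd2 (r = 0.96). Rarb was closest to Cldn11 (r = 0.95), Rarg to Ramp3 (r = 0.94), Dhrs3 to Plod1 (r = 0.93) and Ecm1 to Fhl2 (r = 0.97). The next closest were Pkdcc and Rbpms2 for Aldh1a2, Ehf and Rprm for Aldh1a3, Psph and Krt7 for Aldh1a1, Stbd1 and Mgp for Crabp1, and Zranb2 and Pard6g for Crabp2. For the other 4 genes they were Ccdc102a and Flrt2 (Rarb), Rad51ap1 and Serpine2 (Rarg), Nek6 and Col5a2 (Dhrs3), and Sema3a and S1pr3 (Ecm1).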

How the data were processed

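The authors deposited raw count tables (UMIs for Drop-seq and 10x, reads for C1), which were used here, and normalized tables, which were not. The submitters' processing notes name Bowtie2 2.2.7 (Drop-seq, C1), Cell Ranger 1.3.0 (10x) and genome build mm10. The labels' protocol is that of Drop-seq for all 3. No source used here gives the 10x or C1 protocol, the counting tool of Drop-seq or C1, the use of strand or the annotation. The 9 genes and the lists were chosen with earlier results of these data known.

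Cells with 500 or more genes and at most 20% mitochondrial counts were kept (C1 lists no mitochondrial gene). Scrublet doublets were removed in 10x (17) and C1 (11). In Drop-seq it marked 0.255% of cells, under the 0.5% taken here as a failed run, so none was removed. Each library was clustered with scanpy 1.11.5 and Leiden 0.10.2 (2000 variable genes, 30 components, 15 neighbours, resolution 1), without the retinoid genes. Clusters took the class with the highest marker z score where 3 markers were detected. The naming rule was revised after values were seen, and its first form is an alternative.

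Counts were summed per library and class (10 or more cells) and the sums were modelled by edgeR 4.0.16 in R 4.3.3, after filterByExpr and TMM, with class and library (a block) as terms: 17 sums, 9 residual degrees of freedom. The replicate number, 1 throughout, pairs nothing, and the block is the library, whose classes share their tissue. P-values are two-sided, adjusted over the 9520 genes left once those of the clustering and of the marker lists were set aside. The SE is the log2 fold change over the square root of F. In simulated stroma data 53% of 2-fold and 83% of 4-fold changes were recovered, with 7 false calls among 9289 genes. Intervals are exact 95% Poisson or binomial, for counting error only. The other retinoid genes named passed in a class contrast with 1 direction in all 3 libraries, up to 12 by adjusted p. Alternatives were other clustering, filters, scaling, DESeq2 1.42.0, and each library left out. Ureteric epithelium formed 1 cluster per library and was not split.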

Additional observations from a re-analysis of the deposited data

Results flagged for a closer look

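In 3 results the C1 library moved against both droplet libraries, and these differences between platforms were not tested. Values are log2 ratios of a class to the mean of the other classes within a library.

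Crabp1 in ureteric epithelium had -1.35 (Drop-seq) and -4.00 (10x), but 0.86 (C1). The levels behind this were 14.1 CPM, 1.76 CPM (2 UMIs) and 108 CPM, and the 2 C1 name groups gave 117 CPM (E14) and 95 CPM (HT). In the C1 ureteric cells the summed stroma markers were at 13.7% of the stromal level, against 3.14% in Drop-seq and 2.01% in 10x, while Crabp1 was at 34.1% of its stromal level. The part of this in the result was not tested.

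Dhrs3 had ureteric values of 0.78 (Drop-seq), 0.42 (10x) and -0.65 (C1). Aldh1a3 had stromal values of -1.39 (Drop-seq), -1.19 (10x) and 0.82 (C1), where the C1 level in stroma was 2.13 CPM (115 reads).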

How the results depend on the processing

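Of the 17 alternatives, 15 were planned and 2 (the first naming rule, and leaving out the 5 barcodes of highest count per library) were chosen after seeing the data. Without the library as a replicate block the class contrasts gave 4 calls in place of 19 and the pairs 8 in place of 46. With 1 library left out in turn they gave 6 to 24 and 15 to 64, the lowest in both without Drop-seq, which leaves 2 libraries. The cause of the Drop-seq effect was not tested. The stroma zone contrast gave 0 calls under all 17. Other alternatives gave 14 to 23 and 40 to 59 calls. Of 391 refitted log2 fold changes, 340 kept direction and side of the threshold, 50 fell short of it and 1 reversed: Dhrs3 in immune cells, at -0.25 without the 5 barcodes of highest count. The 340 include the zone contrasts of Aldh1a2, Crabp1, Crabp2 and Ecm1, which did not pass as reported or under any of the 17. All that fell short or reversed were among the 19 class calls. Counts over all genes moved more: for stroma 1014 genes passed, 62 without the block, 121 without Drop-seq, 1574 without C1 and 2198 with clustering genes included. For immune cells 2559 passed, 106 with the 2 C1 name groups as separate libraries and 3834 with 1000 variable genes. The other class contrasts moved in the same way, with 62 to 1709 genes for cap mesenchyme (937 as reported), 149 to 1880 for nephron epithelium (878), 334 to 2155 for ureteric epithelium (1130) and 293 to 2406 for endothelium (1372), and 38 to 1433, 175 to 1361, 239 to 1412 and 392 to 2028 with 1 library left out. The zone contrast had 5 genes, 0 to 88 under the alternatives. Platform and any difference between the tissue samples cannot be told apart, since each platform is 1 library. Depth limits the low genes: Rarg had 1 UMI in the 10x cap mesenchyme and Aldh1a2 1 UMI in the 10x ureteric cells.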

Other observations

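A small epithelial cluster that took no class name, whose leading genes include Fxyd4, Foxq1, Krt7 and Krt19, was found in Drop-seq (16 cells) and 10x (36 cells). It held Aldh1a3 at 297 CPM in Drop-seq and 132 CPM in 10x, beside 128 and 142 CPM in ureteric epithelium. Dhrs3 was at 123 and 190 CPM, above the ureteric 36.4 and 66.0 CPM and the stromal 64.9 and 154 CPM. Crabp2 was at 427 and 74.4 CPM, and Rarg at 23.2 and 20.7 CPM. Aldh1a1 had 20.9 CPM in Drop-seq (9 UMIs) and 8.26 CPM in 10x (2 UMIs), and Aldh1a2 had 2 UMIs in each. The 16 Drop-seq cells held 431304 UMIs in sum at a median of 5793, so that their pooled levels lean on cells of high count. With each cell scaled alone and the values averaged, they had 178 CPM of Aldh1a3, 270 CPM of Crabp2 and 112 CPM of Dhrs3. Rarg was then at 32.9 CPM and Aldh1a1 at 77.4 CPM. The cells are few, and no test was made.

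Drop-seq podocytes (103 cells), a class that the other libraries did not yield under that name, had Rarb at 48.5 CPM and Aldh1a2 at 125 CPM. In 10x an unnamed cluster of 79 cells had Aldh1a2 at 102 CPM. In C1 an unnamed cluster of 32 cells had Aldh1a2 at 676 CPM and Crabp1 at 292 CPM.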
